A study of Oryctolagus cuniculus with 4 samples.

Results

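The ADAM, ADAMTS, cathepsin and serpin families were described in intact semitendinosus tendon of the rabbit. Members were the genes of the deposited transcript count table whose symbol begins with ADAM (ADAMTS and the ADAMTS-like ADAMTSL genes included) or SERPIN, or is CTS plus 1 letter, leaving out CTSK, SERPINH1, ADAMTS2 and ADAMTS14. The rule found 78 of 20294 genes: 19 ADAM, 17 ADAMTS, 3 ADAMTSL, 10 cathepsin and 29 serpin genes. The study sequenced polyadenylated RNA from 1 tendon of each of 4 New Zealand White rabbits, all female and 193 days old, and these 4 tendons form 1 group. The labels call the tissue an autograft, the series title an allograft and the sample descriptions intact; the tendons were frozen after harvest. There is no contrast between conditions, so the values below are levels, their spread between tendons and ratios within a tendon. Muscle was scraped off the tendon surface, and whole tendon was ground, so each value mixes all cell types left in the tissue. In such bulk samples, fewer cells of a type and less RNA per cell cannot be told apart.

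ADAM proteins are membrane-anchored metalloproteinases, and several of them cut the extracellular part of other membrane proteins, a step known as shedding. ADAMTS proteins are their secreted relatives, which cleave matrix proteins such as the proteoglycans aggrecan and versican and the propeptides of collagen, while ADAMTSL proteins share their binding domains, lack the protease domain and attach to fibrillin microfibrils. Cathepsins are mostly proteases of the lysosome. Serpins inhibit proteases by trapping them in a conformational change, although some members, among them SERPINF1, do not inhibit any protease. In tendon these families take part in the turnover of a matrix made largely of type I collagen.

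Total estimated counts per tendon ranged from 19759696 to 30646052, and 3 counts, used as the floor of detection, were worth 0.0979 to 0.152 CPM (counts scaled to a fixed library total). A count of 0 allows up to that many. Levels are given as TPM, counts divided by transcript length and scaled to a fixed total, which are corrected for transcript length so that genes can be compared. In a search for duplicate libraries, none of the 6 pairs of tendons agreed within counting noise. TNMD, a tenocyte marker gene, had 158, 169, 31.7 and 187 TPM in tendons 1 to 4, lowest in tendon 3. The other tenocyte markers did not follow it. MKX, THBS4, FMOD and CILP were lowest in tendon 4, and EGR1 and EGR2 in tendon 2. The 7 tenocyte markers with an entry together took 1.65, 1.84, 1.04 and 0.877% of TPM, lowest in tendon 4. Muscle RNA was also present: the list of genes common to muscle fibres took 0.626, 2.48, 1.27 and 1.70% of TPM. Macrophage markers took 0.0168, 0.0164, 0.0282 and 0.0378% and adipocyte markers 0.0247, 0.0401, 0.0547 and 0.104%, both highest in tendon 4.

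The summed share of the 78 members was 0.288, 0.243, 0.253 and 0.240% of TPM in tendons 1 to 4, averaging 0.256% ± 0.0219 (SD, n = 4). Cathepsins had the highest mean share, 0.104% ± 0.00880, followed by serpins at 0.0967% ± 0.0220. ADAM genes took 0.0305% ± 0.00380, ADAMTS genes 0.0159% ± 0.00281 and ADAMTSL genes 0.00843% ± 0.00143 (SD, n = 4). The order of cathepsins and serpins was not the same in every tendon. Serpins took 0.125, 0.0798, 0.104 and 0.0785% in tendons 1 to 4, against 0.105, 0.116, 0.0960 and 0.10004% for cathepsins, so serpins were ahead in tendons 1 and 3. Without length correction the serpin share was 0.260% and the cathepsin share 0.107%. The 3 metalloproteinase-related groups kept 1 order, ADAM above ADAMTS above ADAMTSL, in all 4 tendons.

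**Figure D1:**
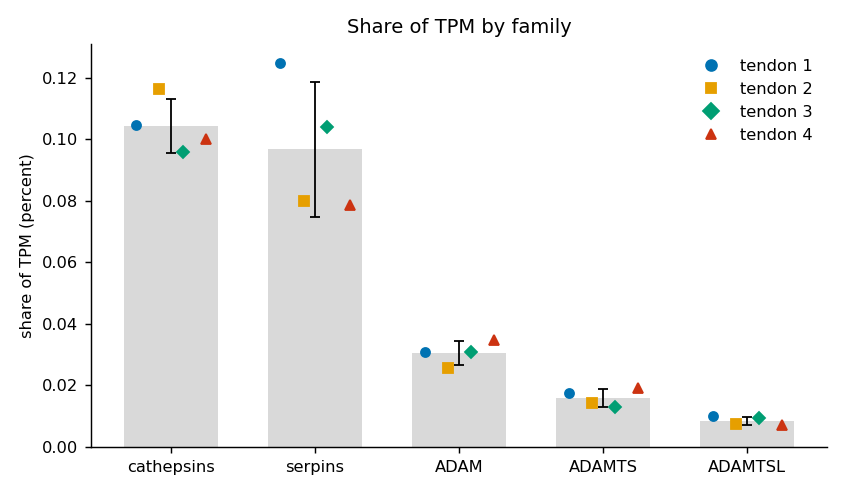
Share of TPM in percent taken by each family in each tendon (1 point per tendon); bars give the mean over 4 and error bars the SD. The serpin share runs from 0.0785% in tendon 4 to 0.125% in tendon 1, while ADAMTS genes stay between 0.0130% and 0.0191%.

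A mean of at least 1 TPM was reached by 48 of 78 members (61.5%), against 75.4% of all 13225 genes with a symbol. A mean of at least 10 TPM was reached by 31 members (39.7%), against 53.0% of named genes. The members below these levels were spread unevenly over the families. At least 1 TPM was reached by 16 of 17 ADAMTS, 3 of 3 ADAMTSL and 9 of 10 cathepsin genes, but by 8 of 19 ADAM and 12 of 29 serpin genes. Of the members, 12 had fewer than 3 estimated counts in every tendon. These were ADAM6, ADAM6A, ADAM30, CTSG, SERPINA4, SERPINA5, SERPINA7, SERPINA9, SERPINA11, SERPINB10, SERPINB11 and SERPINI2, and 7 of them had 0 counts in all 4.

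**Figure D2:**
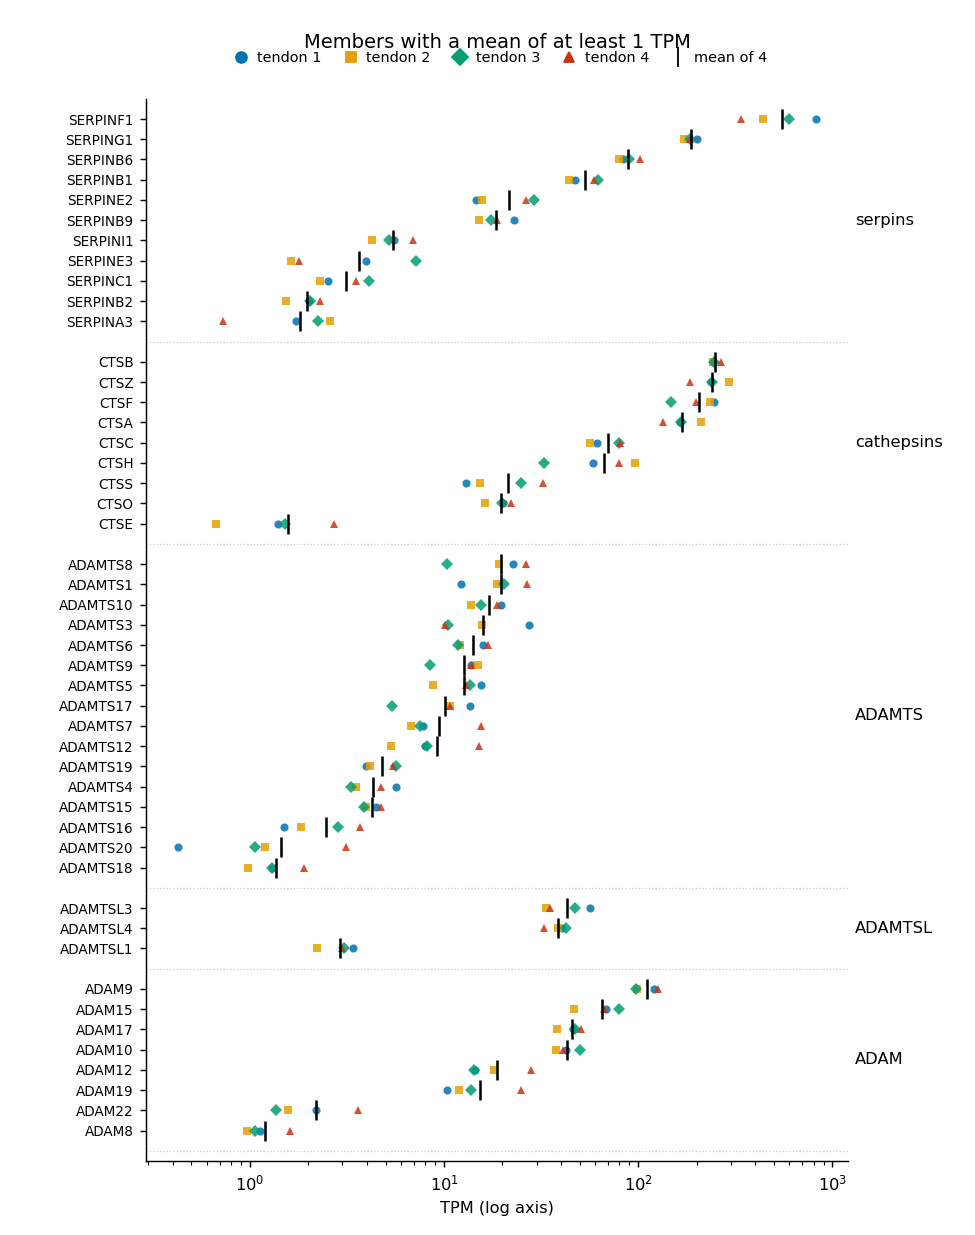
TPM on a log axis of members with a mean of at least 1 TPM, in each tendon (1 point per tendon), grouped by family; a black tick gives the mean over 4. SERPINF1 lies between 339 and 826 TPM, and the ADAMTS genes all have means below 20 TPM.

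Serpins were dominated by SERPINF1, which encodes pigment epithelium-derived factor, a secreted anti-angiogenic serpin (ENSOCUG00000000092.3, chromosome 19, 16382241 to 16397033, OryCun2.0). SERPINF1 had 826, 438, 597 and 339 TPM in tendons 1 to 4, averaging 550.1 ± 213 TPM (SD, n = 4), and stood at rank 147 of the 13225 named genes. It was highest in tendon 1 and lowest in tendon 4, and its lowest tendon lay above the highest value of every other serpin. SERPINF1 alone made up 56.9% of the serpin mean, and 66.3, 54.9, 57.4 and 43.2% of the serpin sum in tendons 1 to 4. Its annotated transcript has 6173 bases. In CPM it stood at 1831 ± 620.5 (SD, n = 4) and first of all members.

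SERPING1, the C1 inhibitor of the complement and contact systems (ENSOCUG00000026479.2, chromosome 1, 190671534 to 190690963), was second and had the narrowest range of the members above 10 CPM. It had 201, 173, 186 and 185 TPM, a mean of 186 ± 11.3 TPM. The 4 values lay close together, and its highest tendon was 1.08-fold the lowest in CPM scaled by TMM, a normalisation that sets most genes level between libraries. SERPING1 inhibits the complement proteases C1r and C1s, whose genes varied more. C1R had 45.2, 63.1, 80.6 and 173 TPM and C1S had 163, 115, 227 and 244 TPM, both highest in tendon 4. SERPING1 was 0.962, 0.973, 0.603 and 0.444 times the sum of C1R and C1S in tendons 1 to 4. On the log2 scale the ratio averaged -0.50 ± 0.55 (SD, n = 4), and an exact two-sided permutation test that flips signs gave p = 0.125, adjusted p = 0.292 (Benjamini-Hochberg, over the 7 ratios computed, of which 5 are given). With 4 tendons this test cannot go below 0.125, so no ratio could pass 0.05. In CPM, without length correction, the direction turned and the mean log2 ratio was 0.55. Of the 5 genes of the C1 complex list above 10 CPM, 4 had a range of at least 2-fold, where 9.26% of all genes tested did: C1R (3.80-fold), C1QA (5.02-fold), C1QC (2.44-fold) and MASP1 (3.44-fold). C1QA and C1QC encode chains of C1q and are also on the macrophage list, while MASP1, a protease of the lectin pathway, was highest in tendon 2 and lowest in tendon 4.

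Intracellular serpins of clade B, which guard cells against proteases leaking from granules and lysosomes, were next. The 11 clade B genes summed to 156, 140.4, 172 and 183 TPM in tendons 1 to 4, and 3 of them held nearly all of it. SERPINB6 had 83.4, 79.3, 89.8 and 102 TPM and SERPINB1, an inhibitor of neutrophil elastase and cathepsin G, had 47.4, 44.0, 62.2 and 58.9 TPM. SERPINB9, which inhibits granzyme B, had 22.8, 15.2, 17.4 and 18.7 TPM. The ranges of SERPINB6 and SERPINB1 did not overlap with each other or with SERPINB9. SERPINB2, plasminogen activator inhibitor type 2, had a mean of 1.97 ± 0.321 TPM, and the other 7 clade B genes stayed below 1 TPM on average.

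SERPINE2, protease nexin 1, which inhibits thrombin and plasminogen activators, had 14.5, 15.8, 29.2 and 26.5 TPM. Its values fell into a lower pair, tendons 1 and 2, and a higher pair, tendons 3 and 4, with a highest-to-lowest ratio of 2.02-fold in TMM-normalised CPM. SERPINE3 had a mean of 3.65 ± 2.59 TPM and was highest in tendon 3 at 7.19 TPM.

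Plasminogen activators were measured in the same tendons. The urokinase gene PLAU had 32.4, 39.5, 53.2 and 85.9 TPM and the tissue activator gene PLAT 35.8, 38.3, 28.4 and 26.9 TPM, so PLAU was highest in tendon 4 and PLAT in tendon 2. Transcripts of plasminogen itself, PLG, had 0 counts in all 4 tendons. The thrombin receptor gene F2R had 49.0 ± 15.1 TPM (SD, n = 4). Of the 10 genes listed for plasminogen activation and clotting, 9 had an entry and 7 reached 1 TPM. PLAU alone of the 4 above 10 CPM had a range of at least 2-fold, 2.61-fold, where 9.26% of all genes tested did.

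The 8 clade A genes, a clade that includes many plasma serpins made by the liver, summed to 1.73, 2.63, 2.63 and 0.962 TPM, most of it SERPINA3, an inhibitor of chymotrypsin-like proteases, at 1.73, 2.58, 2.24 and 0.730 TPM. No entry carried the symbol SERPINA1, so the clade A sum leaves it out. SERPINC1, antithrombin, had a mean of 3.11 ± 0.844 TPM, and SERPIND1, heparin cofactor 2, and SERPINF2, the plasmin inhibitor alpha-2-antiplasmin, had 0.474 and 0.345 TPM. The list of liver and plasma protein genes, 9 with an entry, took 0.00343, 0.00304, 0.00474 and 0.00465% of TPM. ALB had 0.281, 0.0821, 0.276 and 0.321 TPM and TTR 0 counts in all 4 tendons, while TF, transferrin, had 29.5, 27.7, 43.2 and 41.9 TPM and FGA, a fibrinogen chain, averaged 2.85 ± 0.578 TPM, and the other 5 stayed below 1 TPM on average. SERPINI1, neuroserpin, an inhibitor of tissue plasminogen activator, had 5.54, 4.26, 5.20 and 6.95 TPM.

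Among cathepsins, 4 genes lay above 100 TPM on average. CTSB, a lysosomal cysteine protease (ENSOCUG00000016580.3, chromosome 2, 38137435 to 38155835), had 244, 242, 246 and 266 TPM, a mean of 249.6 ± 11.2 TPM (SD, n = 4). CTSZ, a carboxypeptidase, had 237, 292, 240.3 and 185 TPM, highest in tendon 2 and lowest in tendon 4. Its range was wider than that of CTSB, whose first 3 tendons were almost equal. CTSF, another cysteine cathepsin, had 246, 233, 148 and 198 TPM. CTSA, a serine carboxypeptidase that also stabilises lysosomal glycosidases, had 163, 211, 167 and 134 TPM. Neighbours in this order overlapped between tendons, but CTSB lay above CTSA without overlap, and the lowest CTSA value lay above the highest value of CTSC.

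A second tier held CTSC, dipeptidyl peptidase 1, which activates the serine proteases of granules, at 61.2, 56.3, 79.7 and 80.9 TPM, and CTSH, an aminopeptidase, at 58.2, 96.4, 32.8 and 79.3 TPM. CTSH had the widest range of all members above 10 CPM. It was highest in tendon 2 and lowest in tendon 3, 3.16-fold apart in TMM-normalised CPM. CTSS, the cathepsin of antigen-presenting cells, had 13.0, 15.3, 24.8 and 32.3 TPM, with tendons 3 and 4 above tendons 1 and 2. The macrophage list had the same split, at 0.0168, 0.0164, 0.0282 and 0.0378% of TPM, with 10 of its 11 markers highest in tendon 4 and CD68 at 14.8, 10.6, 24.1 and 35.2 TPM. The split was not particular to macrophages. Lists of adipocytes, lymphocytes, and neutrophils and mast cells also had tendons 3 and 4 above tendons 1 and 2. So did those of endothelial cells (0.0263, 0.0327, 0.0441 and 0.0413%), pericytes and smooth muscle, and liver and plasma proteins. The part of macrophages or of other cell types in the CTSS values was not tested.

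Of the remaining cathepsins, CTSO had 20.2, 16.2, 19.9 and 22.2 TPM and overlapped with CTSS, which was above it in 2 of 4 tendons. CTSE, an aspartic cathepsin of gut and immune cells, was lower, at 1.40, 0.671, 1.53 and 2.72 TPM. CTSG, a serine protease of neutrophil granules, had 0 counts in all 4 tendons, and MPO, another neutrophil granule gene, had at most 0.129 TPM. Other markers of that list were higher. Of the 6 neutrophil and mast cell markers with an entry, 4 averaged at least 1 TPM, where 75.4% of named genes did. Among these, S100A8 had 3.31, 2.14, 4.13 and 5.99 TPM and S100A9 had 2.32, 2.61, 2.68 and 2.55 TPM. No entry carried the symbol CTSL. The 7 cysteine cathepsins among the members, which also leave out CTSK by the rule, summed to 880.3, 952, 792 and 864 TPM. Their inhibitors, the cystatins, were led by CSTB, which acts inside the cell, at 181 ± 10.6 TPM, and CST6 at 21.5 ± 7.50 TPM (SD, n = 4). Of the cystatins, CSTB and CST7 passed 10 CPM, and neither had a 2-fold range, where 9.26% of all genes tested did. CST6 did not pass that filter and had 20.2, 13.4, 20.8 and 31.5 TPM, highest in tendon 4. The planned ratio of CST3 to cysteine cathepsins was not computed, because no entry carried that symbol.

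Of 12 genes listed for the delivery and processing of lysosomal proteases, 11 had an entry, all 11 reached 10 TPM, and 0 of 11 had a range of at least 2-fold, where 9.26% of the 8780 genes averaging 10 CPM or more did. The 2 highest were PSAP, the precursor of saposins, at 825 ± 125 TPM and LAMP1, a lysosomal membrane protein, at 373 ± 39.8 TPM.

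ADAM expression was carried by a few ubiquitous sheddases. ADAM9, ADAM10, ADAM15 and ADAM17 summed to 278, 221, 275 and 284 TPM in tendons 1 to 4, or 86.7% of the ADAM mean. ADAM9 (meltrin gamma; ENSOCUG00000013380.3, scaffold GL018706, 4280578 to 4414541) was highest, at 121, 98.1, 97.0 and 127 TPM, above every value of ADAM15 at 68.5, 46.9, 79.8 and 66.5 TPM. ADAM17, the sheddase of tumour necrosis factor, had 46.4, 38.4, 47.5 and 50.4 TPM, and ADAM10, which sheds Notch and cadherins, had 42.4, 37.9, 50.3 and 41.0 TPM. ADAM10 was 0.913, 0.989, 1.06 and 0.812 times ADAM17, a difference smaller than its spread between tendons (mean log2 ratio -0.09 ± 0.16; SD, n = 4; exact permutation test by sign flips, p = 0.375, adjusted p = 0.438). None of the 4 had a range of 2-fold.

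ADAM12 and ADAM19, the meltrins alpha and beta, which are expressed in developing muscle and mesenchyme, were lower and differed more between tendons. ADAM12 had 14.5, 18.0, 14.2 and 28.0 TPM and ADAM19 had 10.3, 11.9, 13.8 and 25.0 TPM. Both were highest in tendon 4, apart from the other 3, with ranges of 1.92-fold and 2.33-fold in TMM-normalised CPM. Fast-fibre muscle markers were also highest in tendon 4, at 0.00174, 0.00805, 0.00233 and 0.239% of TPM, for 7 of 7 measured markers. So were 6 of 6 adipocyte and 10 of 11 macrophage markers. Slow-fibre markers took more, 0.467, 1.70, 0.915 and 1.06% of TPM, and 7 of 7 were highest in tendon 2. Of the markers common to muscle fibres, 8 of 10 were highest in tendon 2. The part of these cell types in the ADAM12 and ADAM19 values was not tested.

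ADAM22, ADAM23 and ADAM11, which lack protease activity and act in the nervous system, summed to 2.79, 2.06, 1.92 and 5.41 TPM, and ADAM22 held most of it at 2.18, 1.58, 1.37 and 3.63 TPM. ADAM8 and ADAM33 had means of 1.19 and 0.919 TPM. The 6 ADAM genes of testis and epididymis summed to 1.29 ± 0.401 TPM, with all of them below 1 TPM. Of the 12 listed cofactors and shed substrates, 10 had an entry and all 10 reached 1 TPM. Of the 8 above 10 CPM, 2 had a 2-fold range, where 9.26% of all genes tested did. These were IL6R at 2.18-fold and HBEGF at 2.38-fold. The 2 highest of the list were CD44, a hyaluronan receptor, at 80.2 ± 13.1 TPM and TSPAN17, a tetraspanin partner of ADAM10, at 52.1 ± 7.08 TPM.

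ADAMTS genes were numerous and individually low. No member had a mean of 20 TPM, 8 of 17 reached 10 TPM, and neighbours in the order of means overlapped between tendons except ADAMTS15 with ADAMTS16 and ADAMTS18 with ADAMTS13. The 7 that cleave aggrecan, versican and related proteoglycans summed to 74.5, 70.3, 61.3 and 92.7 TPM, or 46.9% of the ADAMTS mean. ADAMTS8 had 22.6, 19.1, 10.4 and 26.6 TPM and was lowest in tendon 3. ADAMTS1 had 12.2, 18.8, 20.5 and 26.7 TPM and was lowest in tendon 1. ADAMTS9 had 13.7, 14.9, 8.50 and 13.8 TPM, again with tendon 3 lowest.

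ADAMTS5 and ADAMTS4, the aggrecanases studied in cartilage loss, stood at separate levels per length. ADAMTS5 had 15.4, 8.75, 13.7 and 13.0 TPM and ADAMTS4 had 5.65, 3.53, 3.32 and 4.75 TPM, without overlap. ADAMTS5 was 2.74, 2.48, 4.12 and 2.74 times ADAMTS4 (mean log2 ratio 1.57 ± 0.33; SD, n = 4; exact permutation test by sign flips, p = 0.125, adjusted p = 0.292). Without length correction the mean log2 ratio was 0.13, since the annotated ADAMTS4 transcript has 7566 bases against 2793 for ADAMTS5. ADAMTS1 was 0.790, 2.15, 1.50 and 2.05 times ADAMTS5, below 1 in tendon 1 only (mean log2 ratio 0.60 ± 0.66; exact permutation test, p = 0.25, adjusted p = 0.350; 1.43 in CPM).

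ADAMTS3, a procollagen N-proteinase, had 27.5, 15.7, 10.4 and 10.1 TPM in tendons 1 to 4. Its values were highest in tendon 1 and lowest in tendons 3 and 4, 2.65-fold apart in TMM-normalised CPM. Summed marker lists of tenocytes and of chondrocytes were also higher in tendon 1 than in tendons 3 and 4. The sums rest mostly on THBS4 and FMOD and on COL11A2 and COL2A1. TNMD and EGR2 were higher in tendon 4 than in tendon 1, and SOX9 and COL9A1 were higher in tendon 3. By gene, 2, 4, 0 and 1 of 7 tenocyte markers were highest in tendons 1 to 4 in TMM-normalised CPM. For 8 chondrocyte markers the counts were 6, 0, 2 and 0. Tenocyte markers took 1.65, 1.84, 1.04 and 0.877% of TPM and chondrocyte markers 0.0913, 0.0465, 0.0375 and 0.0310%, and their part in the ADAMTS3 values was not tested.

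ADAMTS7 and ADAMTS12, which cleave cartilage oligomeric matrix protein, both stood highest in tendon 4. ADAMTS7 had 7.82, 6.76, 7.54 and 15.5 TPM and ADAMTS12 had 7.95, 5.32, 8.20 and 15.2 TPM. Their sum in tendon 4 was 30.7 TPM, against at most 15.8 TPM in the other 3. ADAMTS10 and ADAMTS6, which act on fibrillin microfibrils, had 19.7, 13.8, 15.6 and 18.8 TPM and 15.9, 12.1, 11.8 and 16.8 TPM, with ranges of 1.23-fold and 1.37-fold. ADAMTS17 had 13.6, 10.7, 5.38 and 10.7 TPM and was lowest in tendon 3. ADAMTS20 had 0.428, 1.20, 1.06 and 3.13 TPM, and its mean of 1.46 TPM became 0.896 TPM without tendon 4. ADAMTS13, the plasma protease of von Willebrand factor, was the 1 ADAMTS gene below 1 TPM, at 0.140 ± 0.0325 TPM.

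ADAMTSL3, a matrix protein of the ADAMTS-like group (ENSOCUG00000002672.3, scaffold GL018737, 100294 to 510852), had 56.5, 33.4, 47.0 and 35.0 TPM, and ADAMTSL4, which binds fibrillin-1, had 40.3, 38.5, 42.5 and 32.6 TPM. Their ranges overlapped, and both exceeded ADAMTSL1 at 3.39, 2.22, 3.06 and 2.99 TPM. Each of the first 2 had a higher mean than any of the 17 ADAMTS members, which leave out ADAMTS2 and ADAMTS14. Fibrillin-1, FBN1, had 305 ± 38.4 TPM, and THBS1, thrombospondin 1, at 2859 ± 972 TPM, was the highest of the 8 listed substrates and partners with an entry. Of the 6 above 10 CPM, FBN2, fibrillin-2, alone had a 2-fold range, 3.21-fold, where 9.26% of all genes tested did. The proteoglycan substrates ACAN and VCAN had 76.3, 53.0, 68.2 and 41.1 TPM and 98.4, 91.7, 154 and 120.4 TPM.

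TIMP3, the matrix-bound inhibitor of ADAMTS and ADAM proteases, had 581, 412, 662 and 381 TPM, more than all ADAMTS members summed. It was 3.34, 2.90, 5.09 and 2.00 times their sum in tendons 1 to 4 (mean log2 ratio 1.66 ± 0.56; SD, n = 4; exact permutation test by sign flips, p = 0.125, adjusted p = 0.292). The ratio was on the same side of 1 in all 4 tendons, highest in tendon 3 and lowest in tendon 4. It leaves out ADAMTS2 and ADAMTS14, which are not members. It also leaves out the ADAM genes, which summed to 305 TPM on average, so it does not set TIMP3 against all its targets. Among the 5 listed inhibitors with an entry, TIMP1 followed at 55.7 ± 13.8 TPM, while no entry carried the symbol TIMP2. Of the 3 above 10 CPM, 0 had a 2-fold range, where 9.26% of all genes tested did. LRP1, an endocytic receptor that clears serpin-protease complexes and ADAMTS proteases, had 602, 331, 419 and 324 TPM, highest in tendon 1. Of the 4 listed clearance receptors above 10 CPM, LRP8 (2.33-fold) and VLDLR (2.36-fold) had a 2-fold range, where 9.26% of all genes tested did.

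**Figure D3:**
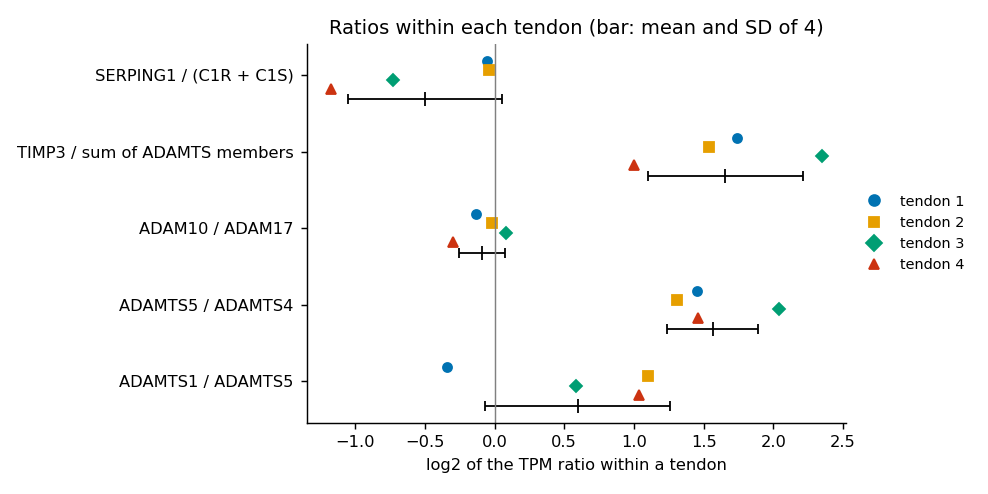
Log2 of the TPM ratio within each tendon for 5 ratios (points for tendons 1 to 4), with the mean and SD of 4 as a bar below the points and a line at equal levels. TIMP3 to ADAMTS and ADAMTS5 to ADAMTS4 lie above 0 in all 4 tendons, with means of 1.66 and 1.57, and ADAM10 to ADAM17 lies on both sides of it.

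Spread between animals was described over the 36 members that averaged 10 CPM or more; the other 42 did not pass this filter. The highest tendon was at least 2-fold the lowest, on TMM-normalised CPM with 1 added, for 10 of these 36 (27.8%), against 9.26% of all 8780 genes that passed the filter. The 10 were CTSH (3.16-fold), ADAMTS3 (2.65-fold), ADAMTS8 (2.44-fold), ADAMTS12 (2.44-fold), SERPINF1 (2.43-fold), CTSS (2.41-fold), ADAM19 (2.33-fold), ADAMTS17 (2.30-fold), ADAMTS1 (2.15-fold) and SERPINE2 (2.02-fold). ADAMTS genes gave 5 of 13, cathepsins 2 of 7, serpins 2 of 7, ADAM genes 1 of 6 and ADAMTSL genes 0 of 3. SERPINE2 was just inside the limit and ADAMTS7, at 1.96-fold, just outside it. No member reached 4-fold, as 1.85% of all genes tested did. The count was 4 without tendon 1, 6 without tendon 3 and 5 without tendon 4, where 4.88%, 8.24% and 6.17% of all genes passed. It was 12 when counts were scaled by library totals, which added ADAM12 and ADAMTS7, where 10.1% of all genes passed.

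**Figure D4:**
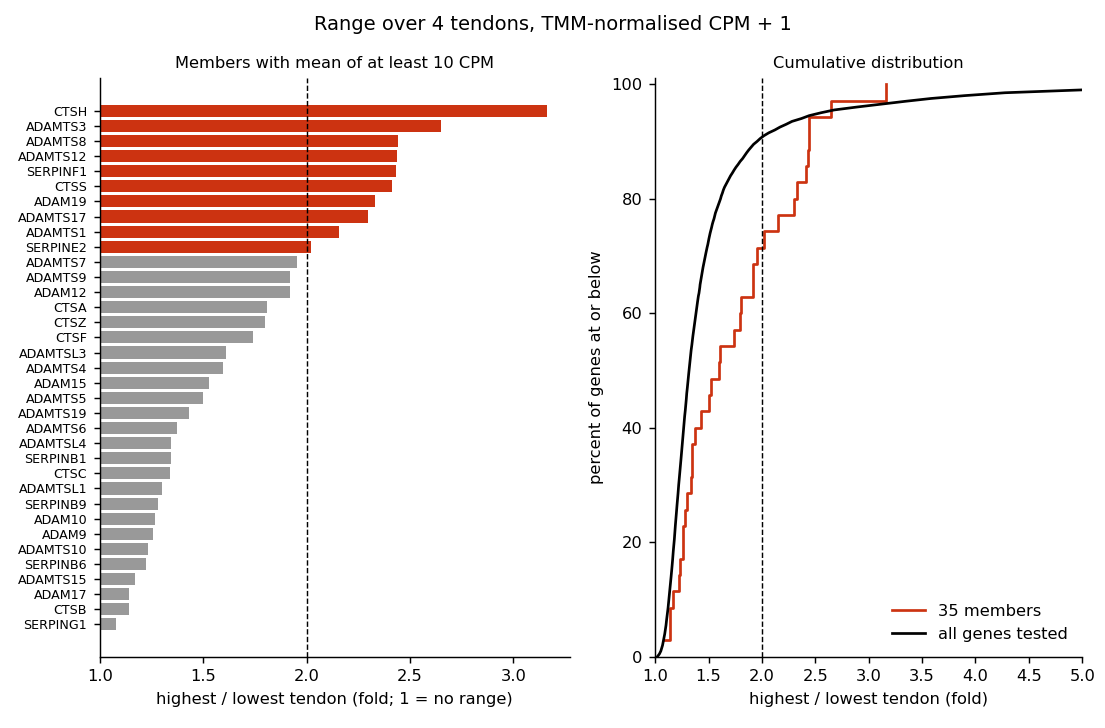
Left, ratio of the highest to the lowest tendon (fold, on TMM-normalised CPM plus 1) for members averaging 10 CPM or more, with bars starting at 1, the value of no range, red bars at or above 2-fold and a dashed line at 2. Right, percent of genes at or below each ratio for these members (red) and all 8780 genes tested (black). CTSH has the widest range, 3.16-fold, and SERPING1 the narrowest, 1.08-fold.

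The biological coefficient of variation, estimated by edgeR over the whole table with no contrast, had a median of 0.252 over the 51 members that passed its filter and 0.206 over all 12740 genes. With DESeq2 dispersions the medians were 0.224 and 0.179. Among genes averaging 10 CPM or more the medians were closer, 0.211 over 36 members and 0.186 over all genes. Members with steady levels included ADAM17 at 0.160, SERPINB6 at 0.165 and ADAMTS10 at 0.165. SERPING1, which had the narrowest range, was above these at 0.189, so the 2 measures of spread ranked it differently. Those with variable levels included ADAMTS20 at 0.582 and SERPINE3 at 0.532, which both averaged less than 10 CPM.

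The tendon with the highest value differed by family. Of the 36 members, 10, 7, 7 and 12 were highest in tendons 1 to 4 in TMM-normalised CPM, where 33.7%, 34.0%, 15.2% and 17.2% of all genes tested were. Tendon 4 was highest for 4 of 6 ADAM genes. ADAMTS genes were split, with tendon 4 highest for 6 of 13 and tendon 1 for 5 of 13. The same counts held in TPM. In TPM, 11, 4, 6 and 15 of the 36 members were highest in tendons 1 to 4, where 44.2%, 13.0%, 15.2% and 27.6% of all genes tested were. For cathepsins the scale mattered. Tendon 2 was highest for 5 of 7 in TMM-normalised CPM, but in TPM tendons 2 and 4 each led for 3 of 7. The median gene of tendon 2 lay 0.04 above its mean over tendons in log2 TMM-normalised CPM and -0.09 from it in log2 TPM. In tendon 4 the marker lists of macrophages, lymphocytes, neutrophils and mast cells, adipocytes and fast fibres were all at their highest. Lists of slow fibres and of genes common to muscle fibres were highest in tendon 2. Lymphocyte markers took 0.000742, 0.000452, 0.000910 and 0.00165% of TPM in tendons 1 to 4, and neutrophil and mast cell markers 0.000755, 0.000684, 0.00104 and 0.00144%. How far these cells contribute to the members highest in tendon 4 was not tested.

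**Figure D5:**
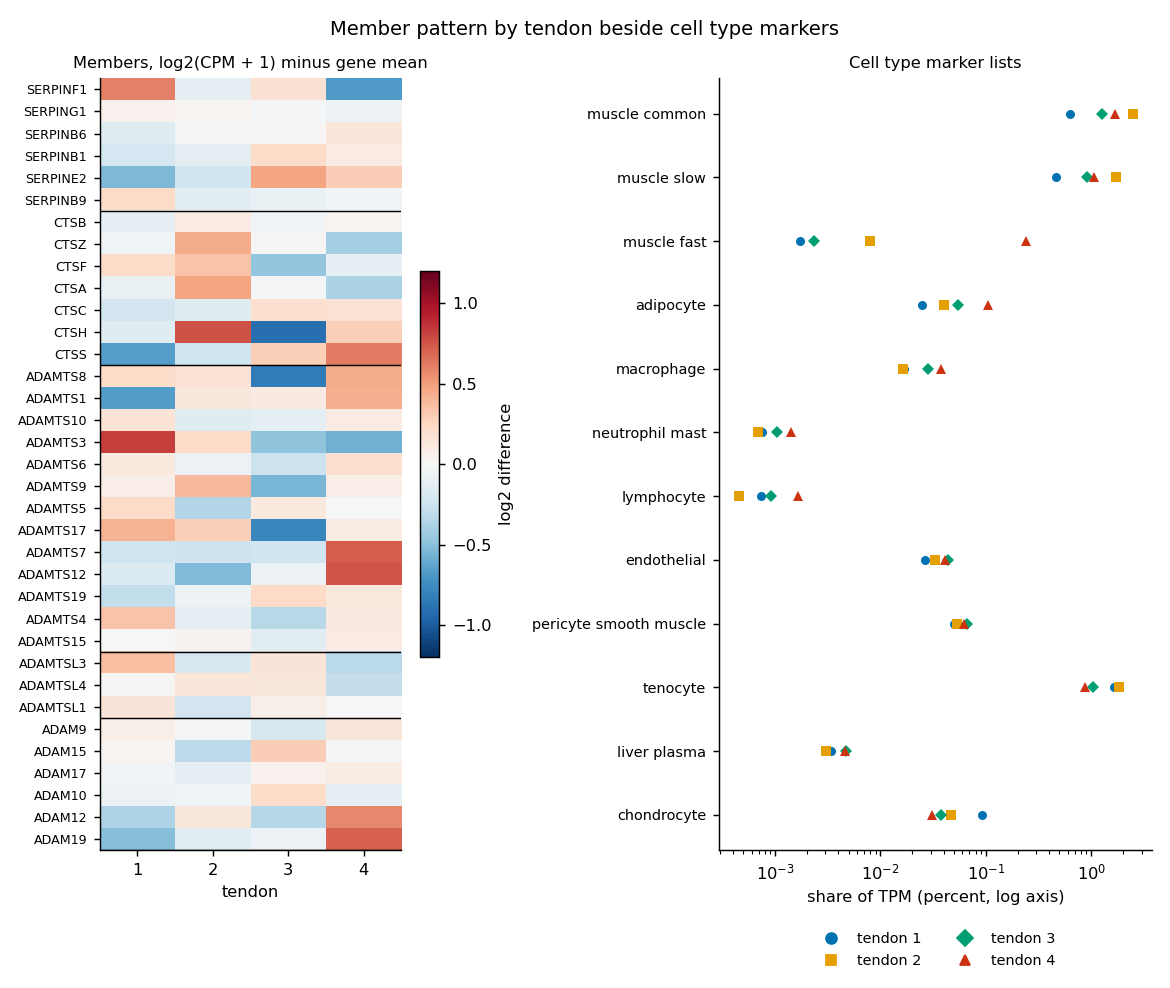
Left, log2(TMM-normalised CPM + 1) minus the gene's mean over tendons, for members averaging 10 CPM or more, with red above and blue below the mean and lines between families. Right, percent of TPM on a log axis taken by each cell type marker list in tendons 1 to 4. ADAM12, ADAM19, ADAMTS7 and ADAMTS12 are highest in tendon 4, where fast-fibre markers took 0.239% of TPM against at most 0.00805% elsewhere. Slow-fibre markers were highest in tendon 2, at 1.70%.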

How the data were processed

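Poly(A) RNA of 4 intact tendons was sequenced, per the labels' protocols with TruSeq libraries made after RNA integrity had passed a minimum. The authors deposited estimated counts for each transcript in each tendon, unscaled; kallisto 0.42.4, bcl2fastq, FastQC and the build OryCun2.0 are named in the submitters' processing notes without their roles. Filters and strand are not given in the sources used here. Transcript lengths and coordinates stand beside the counts, and 7069 of 20294 genes have no symbol.

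Counts were summed per gene; TPM was computed from counts and annotated lengths and summed per gene, and CPM from counts alone. For spread, counts rounded to whole numbers were TMM-scaled with edgeR 4.0.16 under R 4.3.3, and the coefficient of variation was fitted without a contrast to genes reaching 1 CPM in 2 tendons or more. Ratios were tested by exact two-sided permutation (sign flips) with Benjamini-Hochberg adjustment over 7 ratios. Tendons may differ by animal or by preparation, and the spread holds both. Alternatives were CPM, other lengths, scalings, filters and pseudocounts, DESeq2 1.42.0, and each tendon left out. On simulated counts for 12770 genes with a coefficient of 0.2, the recovered value was 0.1996. In a separate simulation 200 genes were raised well past 2-fold in tendon 4, so their passing was set in advance. Of them 100%, and of 8580 unchanged genes 6.562%, had a 2-fold range. The common coefficient of the real counts was higher, 0.263, so 6.562% does not stand for these data. Python 3.11.15 with numpy 2.4.6 and pandas 2.3.3 was used otherwise.

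Named members were, by mean TPM, up to 8 serpins, 7 cathepsins, 7 ADAMTS, 3 ADAMTSL and 7 ADAM genes, the 6 with the largest range, genes fixed by name, genes of the ratios, the 2 highest genes of each pathway list and genes behind small counts; ADAMTS13, ADAMTS15 to ADAMTS20, ADAM8, ADAM33, CTSE, CTSO, SERPINA3, SERPINB2, SERPINC1, SERPIND1, SERPINE3 and SERPINF2, and PLG, ACAN, VCAN, CST7, TF, FGA, TNMD, ALB, TTR, MPO and CD68, were added after their values were seen, as were the groups of members by role. The members and lists were chosen with earlier results of these data known. Other single tenocyte, chondrocyte and neutrophil markers were also named after their values were seen. A search of member proteins for a catalytic motif was not run, since no sequence table was used here. Some results are not reported here, and figures leave out 1 member. Of the members, 15 had counts off a whole number by more than 0.01 in at least 1 tendon. SERPINF1, SERPING1, CTSB, CTSA, CTSS, ADAMTS4, ADAMTS8 and ADAMTSL3 were among them. Part of the reads of these 15 was thus shared with other transcripts, and their levels depend on that split. So does the ratio of ADAMTS5 to ADAMTS4.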

Additional observations from a re-analysis of the deposited data

Results flagged for a closer look

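Dixon's ratio was computed for 43 values, to find a tendon far from the other 3 (family shares, named members and ratios). Its 95% limit was passed by 1, where chance gives about 2.15. CTSB stood apart in tendon 4 with a Dixon ratio of 0.844, at 266 TPM against 242 to 246 TPM. In TMM-normalised CPM tendon 2 was highest, at 513 CPM, and the range was 1.14-fold.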

How the results depend on the processing

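No paired analysis was possible because the 4 tendons form 1 group. In CPM the shares were 0.0554% for ADAM, 0.0470% for ADAMTS, 0.0267% for ADAMTSL and 0.260% for serpin genes, as long transcripts then weigh more. With 200 bases taken off each transcript length they were 0.0232%, 0.0118%, 0.00626% and 0.0732%, and 0.0852% for cathepsins. Without mitochondrially encoded genes ADAM genes took 0.0345% and cathepsins 0.118%. The mean log2 ratio of SERPING1 to C1R and C1S turned to 0.55 in CPM. The number of members with a 2-fold range was 17 of 78 with no filter (8.54% of all genes) and 17 of 51 from 1 CPM (12.8% of all genes), 0 at 4-fold, and 4 to 9 with a tendon left out. Over these results, 1 of the other settings turned a sign and 17 moved a share or median beyond the replicate spread or a count beyond 1.5 times. The other 82 did neither; for ratios, which no setting could bring past the threshold, this covers direction alone, and ADAMTS5 to ADAMTS4 went from 1.57 to 0.13 in CPM without a change of sign. Depth limits the 12 members under 3 counts in every tendon, for which no level is given, and 4 tendons cannot bring an exact sign-flip test below 0.125.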

Other observations

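Several members are neighbours on OryCun2.0, and some adjacent genes had very different levels. SERPINF1 and SERPINF2 lie 9.99 kb apart on the same strand of chromosome 19, with 550.1 ± 213 TPM and 0.345 ± 0.222 TPM (SD, n = 4). The clade B serpins fall into 2 runs of genes less than 100 kb apart. On scaffold GL018715, SERPINB6, SERPINB9 and SERPINB1 had 88.6, 18.5 and 53.1 TPM, while on chromosome 9 the 8 genes from SERPINB5 to SERPINB8 had at most 1.97 TPM, the value of SERPINB2. ADAMTS1 and ADAMTS5, 74.1 kb apart on the same strand of chromosome 14, had 19.5 ± 5.96 TPM and 12.7 ± 2.84 TPM. ADAMTS15 and ADAMTS8, 21.4 kb apart on opposite strands of chromosome 1, had 4.26 ± 0.408 TPM and 19.7 ± 6.91 TPM. CTSH and ADAMTS7, of different families, lie 82.9 kb apart on scaffold GL018746 and were highest in different tendons, CTSH in tendon 2 and ADAMTS7 in tendon 4.

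Of 79 protein-coding symbols of these families in the RefSeq annotation of another rabbit assembly (mOryCun1.1), 73 had an entry in the deposited table. The symbols ADAM1A, ADAM2, ADAMTSL2, ADAMTSL5, CTSD and CTSW were not analysed here, so the family shares do not cover them. Nor do the shares cover CTSL and SERPINA1, symbols that no entry carried.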
